A study of Homo sapiens and Mus musculus with 20 samples.

Results

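The type II cadherin genes analysed here were CDH6, CDH7, CDH8, CDH9, CDH10, CDH11, CDH12, CDH18, CDH19 and CDH20. They were listed by name and no measured value enters the rule, although the list was drawn up with earlier results of these data known. They are 10 of 20090 protein-coding genes on chromosomes 1 to 22 and X. Below, the family means these 10 genes. CDH5, CDH22 and CDH24, also classed with the type II or vascular cadherins, are not among them. Each was taken as a domain, which is the annotated gene body plus 200 kb on either side. The domains did not overlap and held 101 of the 22833 peaks of full-length (FL) Satb1.

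Satb1 was mapped by ChIP-seq with a GFP antibody in MCF10A, a human mammary gland epithelial cell line that lacks native Satb1. The cells expressed, under cumate control, a C-terminal eGFP fusion of FL Satb1, of Satb1 without its homeodomain (∆HD), or of the N-terminal domain with the CUT1 domain alone (N-C1), and each line was sorted to the same fluorescence gate. Cells with FL Satb1 were also fixed after 2 h of camptothecin (CPT), which inhibits topoisomerase I, or of ICRF-193, which inhibits topoisomerase II. Open chromatin was mapped by ATAC-seq in native MCF10A cells and in MCF10A cells expressing Satb1. These 5 ChIP-seq lists and 2 ATAC-seq lists come from 7 of the 20 samples of the series, with 1 list per condition. The experiments were done in duplicate, but a single list per condition gives no replicate error, so no test was run. Intervals on densities are exact 95% Poisson intervals, and intervals on shares are exact 95% Clopper-Pearson intervals. Both cover counting error only, and neighbouring peaks are not independent. The lists held 22833 (FL), 50492 (∆HD), 62787 (N-C1), 24427 (CPT) and 37298 (ICRF-193) ChIP-seq peaks, and 175819 (native) and 205960 (Satb1) ATAC-seq peaks. The study gives a range of reads for its ChIP libraries but none per list, and depth can change the number of peaks.

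Classical cadherins are calcium-dependent adhesion proteins of the cell surface whose tails bind catenins and, through them, actin. Type II members differ from type I members such as CDH1 (E-cadherin) in how the outer repeats dock, and they are best known from the nervous system, where neurons that share a type II cadherin tend to sort or connect together. CDH8, CDH9, CDH10, CDH12 and CDH18 are mainly neural, CDH11 marks mesenchymal and bone-forming cells, CDH6 is prominent in developing kidney, and CDH19 marks neural crest and Schwann cell precursors. Their expression in MCF10A cells was not measured in the lists used here. Satb1 is a chromatin protein with CUT1, CUT2 and homeodomain segments that binds A/T-rich DNA. Its consensus in these cells is 7 bases long, a C or T, then TA, an A or T, TA, and an A or G, and it reads the same on both strands.

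The sequences of 7 peaks in these domains, each 300 bp of hg19 around the peak midpoint on the plus strand, show what Satb1 peaks looked like here, with consensus matches in capitals. The first is the strongest FL peak of the family, upstream of CDH12.
CDH12 upstream, chr5:22938747-22939046: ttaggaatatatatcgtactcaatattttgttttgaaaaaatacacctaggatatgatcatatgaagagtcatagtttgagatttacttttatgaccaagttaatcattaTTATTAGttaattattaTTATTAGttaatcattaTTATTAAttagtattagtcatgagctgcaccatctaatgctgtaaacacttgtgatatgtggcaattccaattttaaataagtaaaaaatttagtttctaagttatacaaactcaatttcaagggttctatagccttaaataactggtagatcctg
The next lies in intron 3 of CDH12 and, with 6 matches, ties for the most in any list.
CDH12 intron 3, chr5:22228216-22228515: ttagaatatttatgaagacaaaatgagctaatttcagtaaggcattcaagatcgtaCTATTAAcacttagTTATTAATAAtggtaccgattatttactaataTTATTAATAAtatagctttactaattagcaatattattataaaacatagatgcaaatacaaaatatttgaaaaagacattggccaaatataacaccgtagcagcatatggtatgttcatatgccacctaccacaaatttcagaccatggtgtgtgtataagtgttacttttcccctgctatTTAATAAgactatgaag
A pair of peaks at CDH9 follows. One is its strongest FL peak, and the other is a downstream peak of the CPT list that overlapped no construct peak.
CDH9 near start, chr5:27043276-27043575: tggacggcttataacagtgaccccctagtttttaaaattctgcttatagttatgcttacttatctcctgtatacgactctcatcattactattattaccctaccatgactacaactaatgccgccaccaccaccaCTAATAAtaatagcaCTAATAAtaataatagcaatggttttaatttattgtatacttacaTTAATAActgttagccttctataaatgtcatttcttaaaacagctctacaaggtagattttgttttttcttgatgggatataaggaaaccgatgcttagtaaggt
CDH9 downstream, chr5:26715567-26715866: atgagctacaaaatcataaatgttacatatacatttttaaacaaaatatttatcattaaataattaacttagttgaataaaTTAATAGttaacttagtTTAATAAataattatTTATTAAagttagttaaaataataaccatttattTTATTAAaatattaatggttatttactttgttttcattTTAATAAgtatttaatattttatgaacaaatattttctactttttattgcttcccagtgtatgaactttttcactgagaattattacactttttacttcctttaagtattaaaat
The strongest FL peaks of CDH18 and CDH6 both lay outside the gene bodies and differed in how they stood with ∆HD.
CDH18 downstream, chr5:19361966-19362265: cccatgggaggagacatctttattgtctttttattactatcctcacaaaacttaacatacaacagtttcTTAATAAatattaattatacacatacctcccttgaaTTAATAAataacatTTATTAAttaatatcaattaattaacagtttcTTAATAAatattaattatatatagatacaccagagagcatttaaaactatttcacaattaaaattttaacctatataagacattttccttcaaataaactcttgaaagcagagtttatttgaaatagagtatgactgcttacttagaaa
CDH6 upstream, chr5:31095886-31096185: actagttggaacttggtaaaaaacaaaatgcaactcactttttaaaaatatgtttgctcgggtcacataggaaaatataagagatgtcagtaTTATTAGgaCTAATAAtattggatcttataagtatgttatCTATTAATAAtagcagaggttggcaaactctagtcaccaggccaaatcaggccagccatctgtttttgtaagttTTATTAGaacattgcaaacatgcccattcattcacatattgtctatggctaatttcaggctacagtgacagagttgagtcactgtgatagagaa
The last was found after ICRF-193 alone, and was the strongest peak of that list in the domains without an FL peak.
CDH8 intron 2, chr16:61939195-61939494: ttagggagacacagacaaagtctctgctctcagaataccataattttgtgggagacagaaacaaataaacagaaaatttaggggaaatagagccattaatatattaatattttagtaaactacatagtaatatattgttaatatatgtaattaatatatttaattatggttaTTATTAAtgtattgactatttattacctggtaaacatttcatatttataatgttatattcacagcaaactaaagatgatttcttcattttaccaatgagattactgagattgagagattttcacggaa

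The CDH12 upstream sequence holds 3 matches whose starts are 17 and again 17 bp apart. In the CDH12 intron 3 sequence, 2 pairs of matches overlap with starts 3 bp apart. The CDH9 downstream sequence was 83.7% A/T with 5 matches, the highest A/T content of the 7, and the CDH6 upstream sequence was 65.7% A/T with as many matches, the lowest. The ICRF-193 peak of CDH8 had 1 match in a sequence of 74.3% A/T.

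The members lay in A/T-rich gene deserts. CDH18, CDH12, CDH10, CDH9 and CDH6 are on chromosome 5, CDH8 and CDH11 on chromosome 16, and CDH20, CDH7 and CDH19 on chromosome 18. Together the domains spanned 7779 kb with 63.9% A/T, against 59.1% over the genome and a median of 55.9% over the domains of all protein-coding genes. CDH19 had the most A/T-rich domain at 65.8%, exceeded by 9 protein-coding genes, and CDH20 the least at 60.5%. The domain of CDH6 was alone in holding part of another protein-coding gene, DROSHA, an RNase of microRNA processing. The consensus occurred 8722 times in the domains, or 112 times per 100 kb, against 81.9 per 100 kb in the genome. CDH12 and CDH18 have the longest bodies, 1103 and 1105 kb, and so contributed the most peaks.

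FL Satb1 peaks were denser in these 10 type II cadherin domains than in the genome as a whole. The domains held 1.30 FL peaks per 100 kb (interval 1.06 to 1.58) against 0.805 over the genome, a ratio of 1.61 (1.31 to 1.96). All of the other lists showed the same direction, with ratios of 1.66 for ∆HD (1.45 to 1.89), 1.65 for N-C1 (1.46 to 1.85), 1.90 for CPT (1.58 to 2.26) and 1.82 for ICRF-193 (1.57 to 2.10). FL density was above the genome value in 8 of 10 members, compared with 20.7% of all protein-coding genes. For ∆HD it was 9 of 10 members against 19.2% of genes, for N-C1 10 of 10 against 18.6%, for CPT 8 of 10 against 18.9%, and for ICRF-193 8 of 10 against 17.6%. The peaks were not unusually strong. Their median fold enrichment, the authors' ratio of signal over local background, was 6.91 in the FL list against 7.33 for all FL peaks, and 9 of 101 fell within the strongest 10% of the list (a fold enrichment of at least 17.5). None of the 101 was in the strongest 1% (at least 40.3), and the strongest, upstream of CDH12, ranked 422 of 22833.

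**Figure D1:**
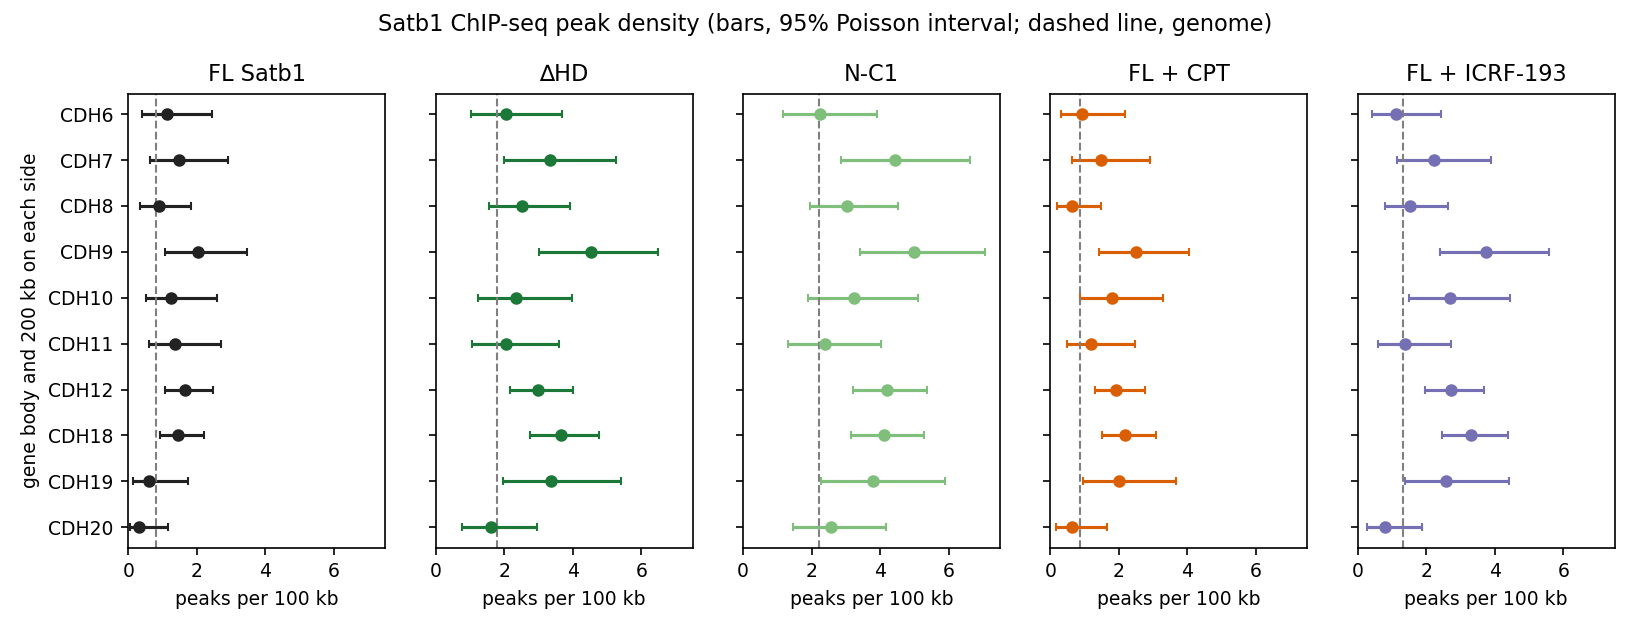
Satb1 ChIP-seq peaks per 100 kb in the domain of each type II cadherin gene, 1 panel per list. Points are the density in the single list, bars the exact 95% Poisson interval and the dashed line the density of the same list over the genome; CDH9 is highest in every panel, and the CDH19 point lies below the line with FL Satb1 alone.

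CDH9, CDH12 and CDH18 had the clearest excess by their FL intervals, which are narrower in long domains. CDH7, with 1.48 FL peaks per 100 kb in a domain of 540 kb, was as dense as CDH18, with 1.46 in 1505 kb. CDH9, which helps to match neurons at synapses, held 13 FL peaks, 29 with ∆HD, 32 with N-C1, 16 with CPT and 24 with ICRF-193. Its densities, 2.03, 4.53, 5.0, 2.50 and 3.75 per 100 kb, were the highest of the family in all 5 lists, and the FL value exceeded 98.4% of protein-coding genes. CDH12 held 25, 45, 63, 29 and 41 peaks in the same order of lists, and CDH18 22, 55, 62, 33 and 50. The FL intervals of CDH9 (1.08 to 3.47), CDH12 (1.08 to 2.46) and CDH18 (0.916 to 2.21) lay wholly above the genome density, and those of the other members included it. The order of the members by FL density was CDH9, CDH12, CDH7, CDH18, CDH11, CDH10, CDH6, CDH8, CDH19 and CDH20, and the interval of each overlapped that of its neighbours.

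CDH7 held 8 peaks with FL Satb1, 18 with ∆HD, 24 with N-C1, 8 with CPT and 12 with ICRF-193. CDH10, a neural cadherin, held 7, 13, 18, 10 and 15 peaks, and CDH8 held 7, 20, 24, 5 and 12. In these 3 genes, as in every member, the construct lists held more peaks than the FL list. Over the genome they were also larger (50492 with ∆HD and 62787 with N-C1, against 22833). The CPT list held fewer peaks than the FL list in CDH8, the same number in CDH7 and more in CDH10. CDH6 held 6, 11, 12, 5 and 6 peaks, and CDH11 held 8, 12, 14, 7 and 8. CDH6 and CDH11 were thus the members whose number of peaks was equal with FL Satb1 and after ICRF-193, while over the genome that list was larger (37298 against 22833 peaks).

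CDH19 and CDH20 had few FL peaks relative to the other lists. With overlapping peaks of all 5 lists merged into sites, 3 of 30 CDH19 sites (10.0%) and 2 of 17 CDH20 sites (11.8%) had FL Satb1. The share was 27.9% over all members and 29.6% over the genome. CDH19 held 3 FL peaks (0.596 per 100 kb, interval 0.123 to 1.74), below the genome density, but 17 with ∆HD, 19 with N-C1, 10 with CPT and 13 with ICRF-193. The corresponding densities exceeded those of 97.1, 95.4, 97.9 and 96.8% of protein-coding genes, against 66.8% for the FL density. In each of the other 4 lists the CDH19 interval lay above the genome density, for example 1.97 to 5.41 with ∆HD and 0.953 to 3.66 with CPT. CDH20 had the lowest density of the members with FL Satb1, ∆HD and ICRF-193. It held 2 FL peaks, 10 with ∆HD, 16 with N-C1, 4 with CPT and 5 with ICRF-193. Its FL density, 0.321 per 100 kb, was close to the median protein-coding gene at 0.383, while its N-C1 density, 2.57, was above the genome at 2.21 and above CDH6 and CDH11.

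Domain A/T content moved with these densities. Protein-coding genes whose domains held 64 to 65% A/T had a median of 1.48 FL peaks per 100 kb, and the 4 members in that class had 1.48 (CDH7), 1.25 (CDH10), 1.66 (CDH12) and 1.46 (CDH18). At 65 to 66% A/T the median was 1.75, with CDH9 at 2.03 and CDH19 at 0.596. At 60 to 61% A/T the median was 0.715, with CDH6 at 1.12 and CDH20 at 0.321. CDH11 had 1.37 where the median of its class, 61 to 62%, was 0.826, and CDH8 had 0.886 where that of 63 to 64% was 1.20. The members thus lay on both sides of the genes of like A/T content, and the part of base composition in the excess over the genome was not tested further. Counted per 1000 consensus matches, the domains held 11.6 FL peaks (interval 9.43 to 14.1) and the genome 9.84, a ratio of 1.18 whose interval, 0.959 to 1.43, included 1. This reading changed with the window and the consensus. The ratio was 1.41 (1.07 to 1.82) in gene bodies alone, 1.34 (1.16 to 1.54) with flanks of 500 kb and 1.24 (1.01 to 1.5) for the consensus narrowed to CTAATAA or CTAATAG, each interval above 1.

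**Figure D2:**
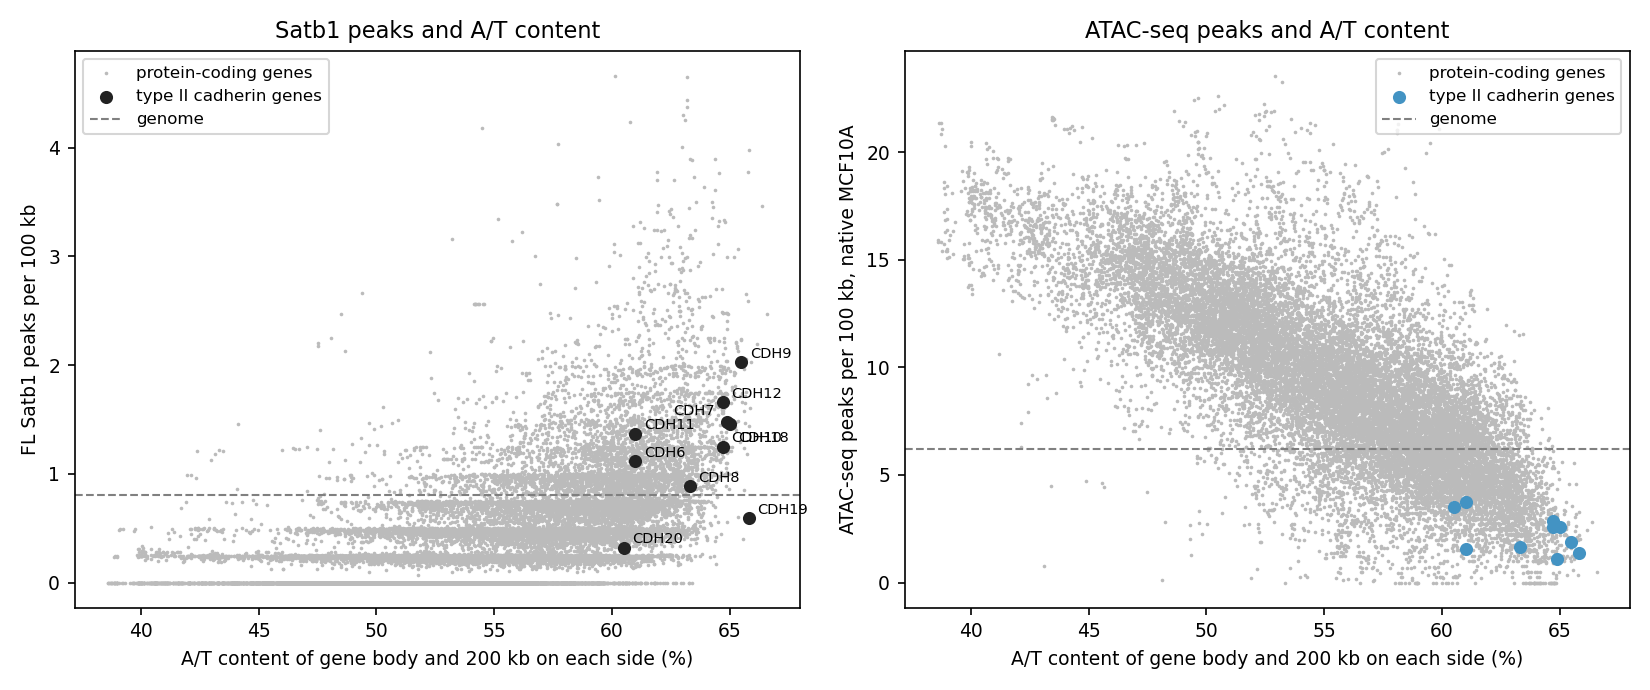
Peaks per 100 kb against A/T content for the domains of 20090 protein-coding genes (grey) and the type II cadherin genes (large points), for FL Satb1 on the left and ATAC-seq in native MCF10A on the right, with the genome density as a dashed line. Satb1 density is higher and ATAC-seq density lower toward high A/T content, and the members sit between 60.5 and 65.8% A/T.

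Most individual consensus matches in these domains lay outside peaks. Of 8722 matches, 268 (3.07%, interval 2.72 to 3.46%) fell inside FL peaks, against 2.75% of the matches of the genome. By gene the share ran from 1.10% in CDH20 (6 of 544 matches) and 1.22% in CDH8 (11 of 905) to 4.02% in CDH12 (70 of 1743) and 4.62% in CDH9 (37 of 800). The intervals of CDH8, 0.608 to 2.16%, and CDH9, 3.28 to 6.32%, did not overlap, although their domains held 115 and 125 matches per 100 kb. Matches in the same peak are not independent, so intervals on matches are too narrow and do not set these genes apart. Counted as FL peaks per 100 kb, the intervals were 0.356 to 1.83 in CDH8 and 1.08 to 3.47 in CDH9, and they overlapped. CDH19 had the same 125 matches per 100 kb as CDH9, but 11 of its 628 matches (1.75%, interval 0.878 to 3.11%) lay in FL peaks.

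Nearly every FL peak of the family had the consensus. It was present within 400 bp at the midpoint of 100 of 101 peaks (99.0%, with a lower bound of 94.6%), against 96.7% of all FL peaks, with a mean of 2.59 matches against 2.76. The exception was a CDH8 peak in intron 2 with a fold enrichment of 5.27. A/T content over 200 bp averaged 74.2% (SD 4.70 across peaks), against 72.4% (SD 5.48) for all FL peaks. Fold enrichment was higher where there were more matches, with a median of 6.37 over the 49 peaks with 1 to 2 matches, 7.53 over the 44 with 3 to 4, and 13.5 over the 7 with 5 or more. The same classes of all FL peaks had medians of 6.64, 7.60 and 13.6. In the construct lists the share of member peaks with a match was 93.0% for ∆HD and 94.4% for N-C1, against 93.8 and 94.6% over the genome. In the drug lists it was 97.6% for CPT and 95.7% for ICRF-193, against 96.3 and 95.7%.

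The strongest peaks differed in how they fared between constructs. At the CDH12 upstream peak shown above (chr5:22938562-22939231, 85.4 kb before the start of the canonical transcript), fold enrichment was 33.8 with FL Satb1, 11.2 with ∆HD, 52.2 with N-C1, 33.4 with CPT and 43.4 with ICRF-193. The CDH12 intron 3 peak had 31.0, 11.6, 51.0, 24.9 and 32.5 in the same order. The strongest FL peak of CDH18, 626 kb downstream of its start and beyond the gene, had 25.8, 5.56, 21.5, 24.4 and 34.8. At all 3 sites the ∆HD value was the lowest of the 5, whereas over the 80 sites that every list shared in these domains the median was 9.81 with ∆HD and 8.22 with FL Satb1. The strongest CDH9 peak, 4.73 kb before the canonical start and inside the gene record, had 22.4, 20.1, 45.8, 15.1 and 19.6, and the strongest CDH6 peak, 97.8 kb upstream, had 19.0, 20.5, 38.7, 16.0 and 19.2. At these peaks N-C1 had the highest value and ∆HD stood near FL Satb1. Fold enrichment is scaled to the background of its own list, so values from different lists were not divided by each other.

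The strongest CDH7 peak (chr18:63561802-63562357, 144 kb downstream of the start) had a fold enrichment of 14.9 with FL Satb1, 8.77 with ∆HD, 12.5 with N-C1, 19.7 with CPT and 27.6 with ICRF-193. The CDH9 downstream peak (chr5:26715413-26716021) had 13.5 with FL Satb1, 19.8 with CPT and 29.0 with ICRF-193, while the nearest construct peaks, 6.88 with ∆HD and 7.26 with N-C1, overlapped neither the FL nor the CPT peak. The ICRF-193 peak was wide enough to overlap them, so merging the lists puts all of these peaks into a single site found in all 5 lists. Both sites stood higher in the drug lists than in the construct lists. Strongest peaks of other members reached 14.9 in intron 10 of CDH8, 8.97 in intron 1 of CDH10, 18.4 at 72.5 kb upstream of CDH19 and 10.9 in intron 1 of CDH20, each with FL Satb1 and each called in all 5 lists.

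**Figure D3:**
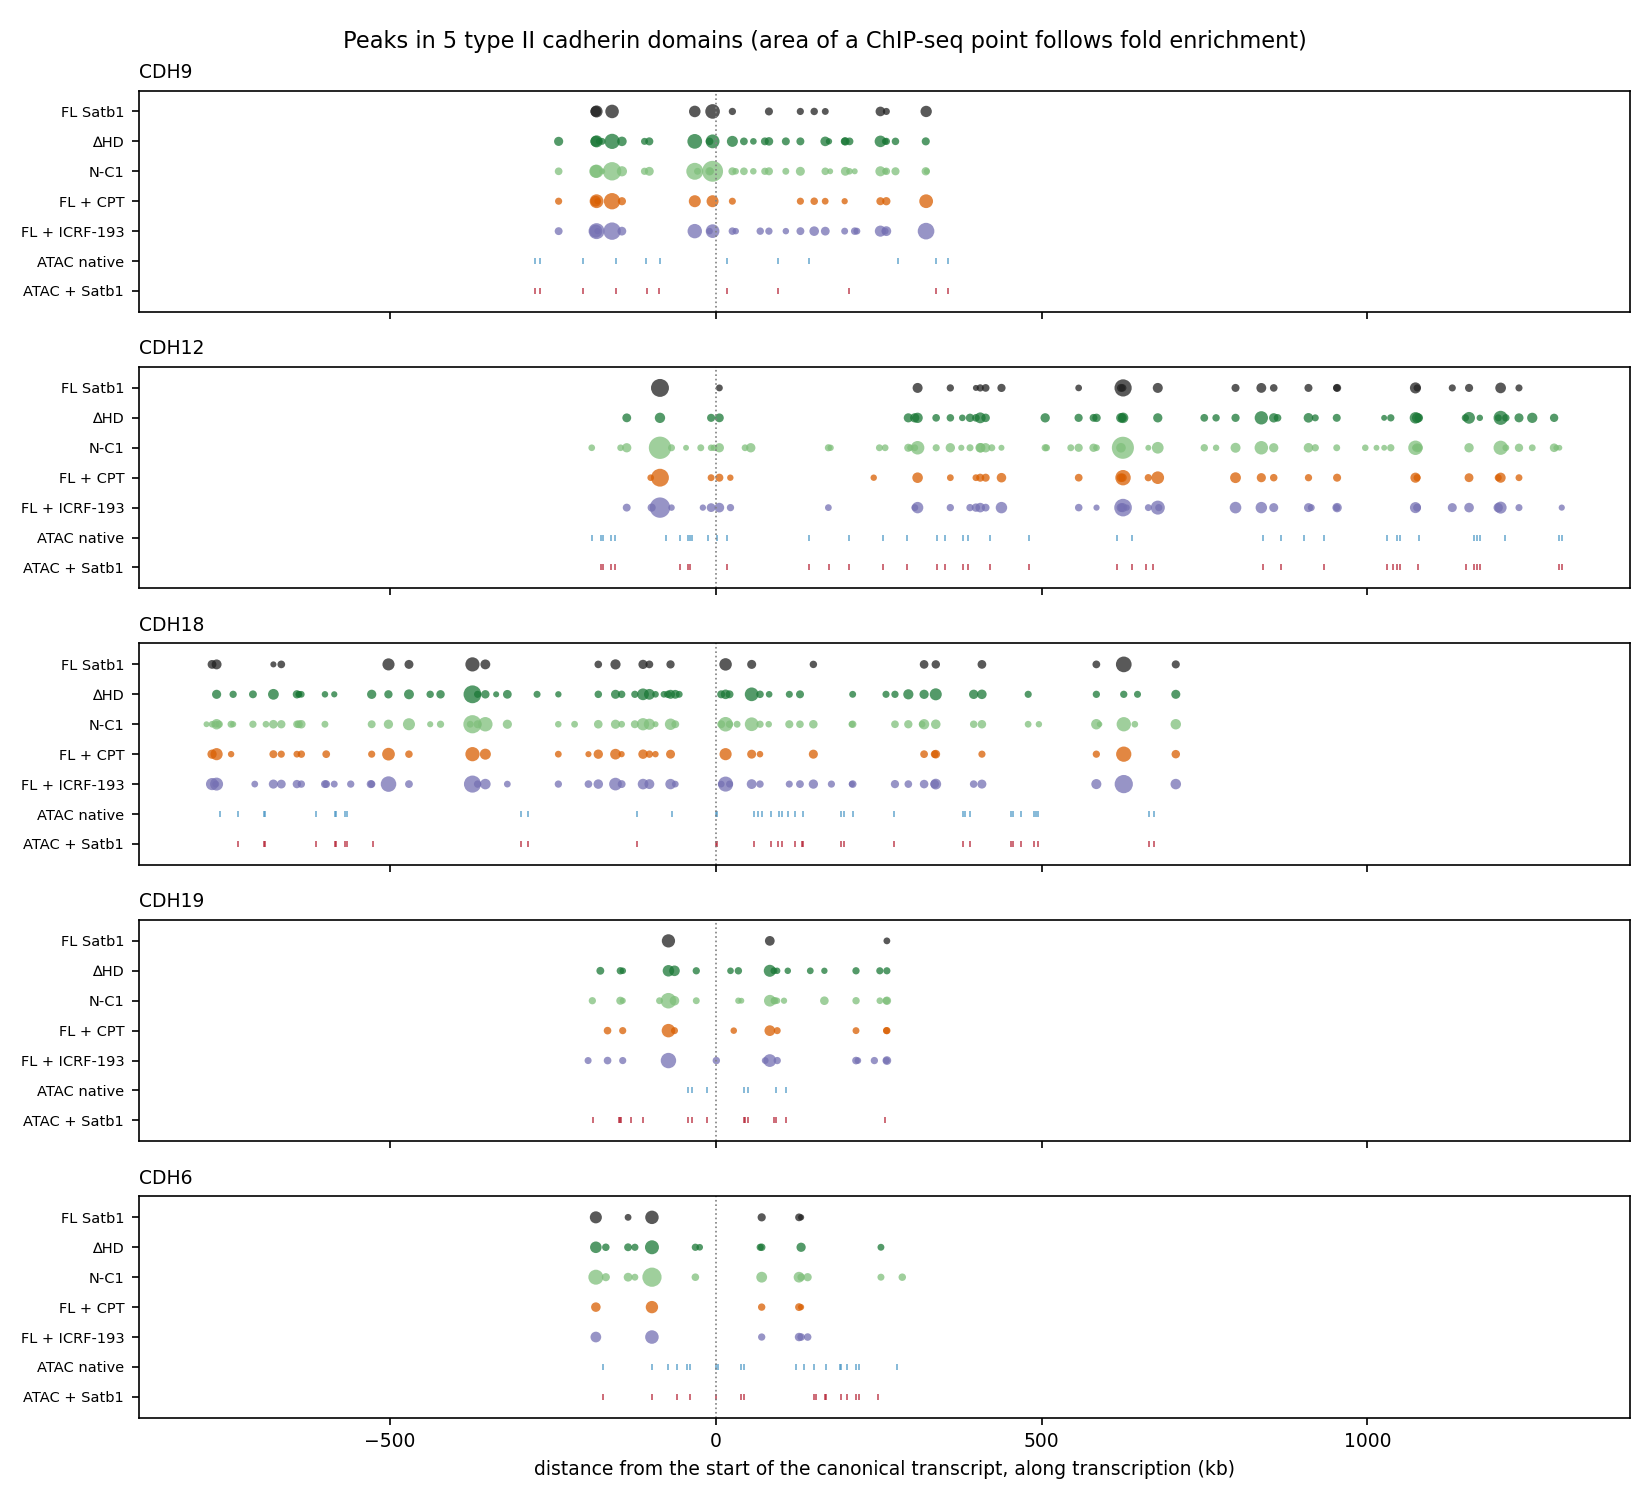
Peaks of 5 type II cadherin domains by distance in kb from the start of the canonical transcript, along the direction of transcription, with 1 row per list. Circle areas follow the fold enrichment of each ChIP-seq peak and ticks mark ATAC-seq peaks; CDH19 has 3 circles in the FL row and 10 to 19 in the other ChIP-seq rows, and CDH6 has 6 in both the FL and the ICRF-193 row.

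Merging the peaks of all 5 lists gave 358 Satb1 sites in the domains and 76579 over the genome. Of the 358, 80 (22.3%) were in all 5 lists, against 21.0% over the genome, and none was in the FL list alone, as for 0.0340% of genome sites. Sites of the constructs without FL Satb1 or a drug came to 71 for N-C1 alone (19.8%, against 20.8% over the genome), 60 for both (16.8%, against 16.8%) and 34 for ∆HD alone (9.50%, against 10.2%). A further 61 sites (17.0%, against 16.6%) were seen with a construct and with a drug but not with untreated FL Satb1, and 23 of them were in CDH18. The other sites with FL Satb1 were 8 with both constructs but not both drugs (2.23%, against 5.02%), 7 with a single construct (1.96%, against 2.36%) and 5 with a drug but no construct (1.40%, against 1.15%). Sites seen after a drug only numbered 20 with ICRF-193 (5.59%, interval 3.45 to 8.50%, against 4.44%), 9 with both drugs (2.51%, interval 1.16 to 4.72%, against 1.10%) and 3 with CPT (0.838%, interval 0.173 to 2.43%, against 0.338%). The interval of the share seen with both drugs only lay above the genome share, and of these 9 sites 3 were in CDH10 and 3 in CDH18. In CDH6, CDH11 and CDH20 there were 0 sites seen after a drug only, among 14, 18 and 17 merged sites. These genes hold too few sites to be set apart from the genome, where these patterns made up 4.44, 1.10 and 0.338%. The interval of the share with FL Satb1 and both constructs but not both drugs, 0.970 to 4.36%, lay below the genome share, and the intervals of the other patterns included it. Many patterns were compared, so some intervals can miss the genome share through counting error. The genome shares of these patterns were not matched for A/T content, whose part was not tested.

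**Figure D4:**
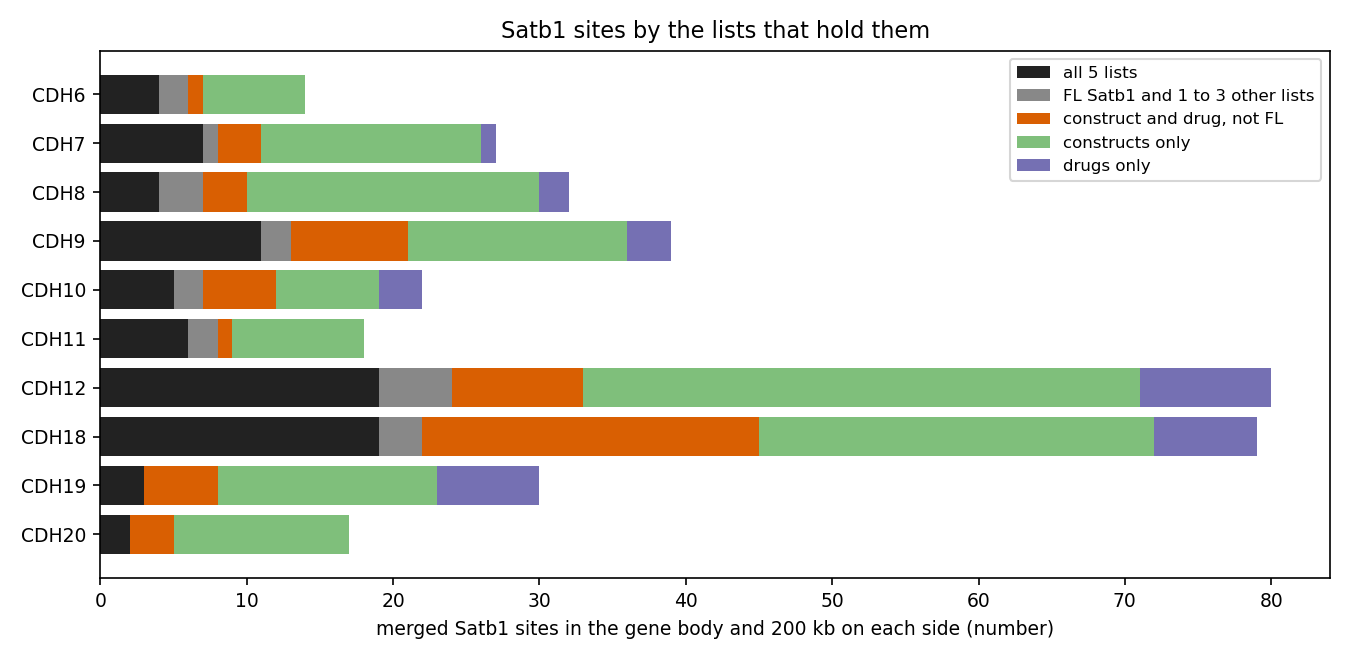
Number of merged Satb1 sites in each type II cadherin domain, split by the lists that hold them. CDH12 and CDH18 hold the most sites, and constructs without FL Satb1 form the largest class in all 10 genes. CDH6, CDH11 and CDH20, with 14, 18 and 17 sites, have no drug-only segment.

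FL peaks of the family were found again in the construct lists about as often as FL peaks elsewhere. The share was 88.1% in the ∆HD list (89 of 101, interval 80.2 to 93.7%), with 88.6% over the genome. It was 93.1% in the N-C1 list (94 of 101, interval 86.2 to 97.2%), with 95.2% over the genome. In the other direction, 61.3% of the 230 ∆HD peaks of the domains (interval 54.7 to 67.6%) and 67.3% of the 284 N-C1 peaks (61.5 to 72.7%) were absent from the FL list, against 60.1 and 65.5% over the genome. These 2 shares were lower in smaller lists of stronger peaks. When every list was reduced to its 22833 strongest peaks, they were 25.6 and 21.3%, against 28 and 22.4% over the genome, so they went from just above the genome to below it with intervals that included it. Construct peaks without an FL peak were weaker, with a median fold enrichment of 5.56 for ∆HD and 5.0 for N-C1, against 9.53 and 10.6 for those with one.

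After CPT, FL peaks of the family were retained more often than FL peaks over the genome, 91.1% (92 of 101, interval 83.8 to 95.8%) against 81.7%. After ICRF-193 the share was 98.0% (99 of 101, interval 93.0 to 99.8%) against 93.0%, and the 2 absent peaks were in CDH6 and CDH11. Over the genome, retention rose with the A/T content of the 400 kb around a peak. There, 75.2% of FL peaks in surroundings under 60% A/T were found after CPT and 87.9% of those in surroundings of 64% or more, and the members had 78 of 101 FL peaks in the latter class, with 93.6% retained. The members did not follow a steady rise after CPT, with 11 of 12 retained (91.7%, against 80.4% over the genome) at 60 to 62% A/T and 8 of 11 (72.7%, against 83.3%) at 62 to 64%. For ICRF-193 the genome shares under 60% and from 64% A/T were 89.8 and 96.1%, and all 78 member peaks of the A/T-rich class were retained.

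Peaks that appeared after a drug followed the same gradient. In the domains, 27.6% of the 127 CPT peaks (35, interval 20 to 36.2%) and 46.8% of the 186 ICRF-193 peaks (87, interval 39.4 to 54.2%) were absent from the FL list, against 23.9 and 43.4% over the genome. In surroundings of at least 64% A/T the shares were 30.5% in the domains and 29.6% in the genome for CPT, and 49.4 and 49.2% for ICRF-193. In genome surroundings under 60% A/T they were 17.2 and 35.7%. By gene, the ICRF-193 share ran from 12.5% in CDH11 (1 of 8, interval 0.316 to 52.7%) and 16.7% in CDH6 (1 of 6, interval 0.421 to 64.1%) to 56.0% in CDH18 (28 of 50, interval 41.3 to 70.0%) and 76.9% in CDH19 (10 of 13, interval 46.2 to 95%). The CDH19 interval lay above the share of the whole genome but included the 49.2% of A/T-rich surroundings, and the small numbers left the CDH6 and CDH11 intervals overlapping it. For CPT, CDH19 had 7 of 10 peaks (70.0%, interval 34.8 to 93.3%) without an FL peak, while CDH6, CDH8 and CDH11 had none among 5, 5 and 7. The CDH6, CDH8 and CDH11 intervals reached 52.2, 52.2 and 41.0% and included the genome share of 23.9%. Drug peaks without an FL peak had median fold enrichments of 5.01 (CPT) and 5.58 (ICRF-193), against 8.0 and 10.1 for those with one.

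**Figure D5:**
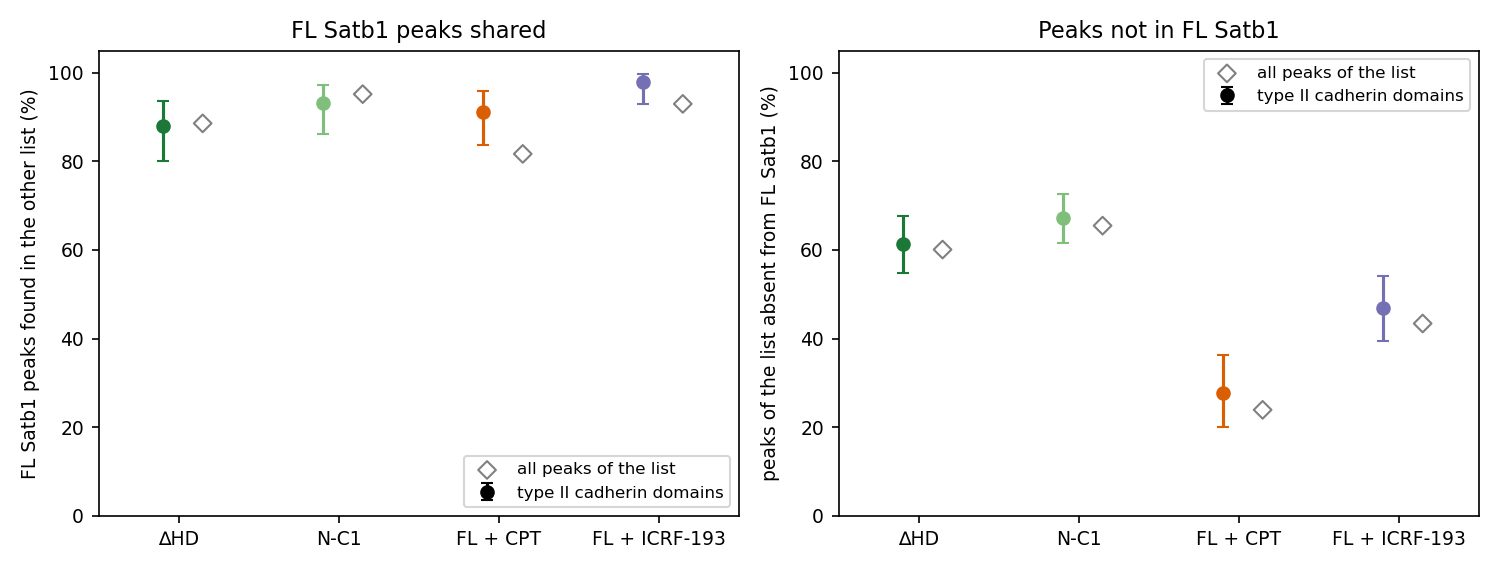
On the left, percent of FL Satb1 peaks of the type II cadherin domains found in each other list, and on the right, percent of the peaks of each list that are absent from FL Satb1. Filled points carry exact 95% Clopper-Pearson intervals and open diamonds give all peaks of the same list; the CPT point on the left, 91.1%, stands above its diamond at 81.7%, and the 4 intervals on the right include their diamonds.

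The members were poor in open chromatin. The domains held 2.35 ATAC-seq peaks per 100 kb in native cells (183 peaks, interval 2.02 to 2.72) and 2.33 in cells with Satb1 (181 peaks, 2.00 to 2.69), against 6.20 and 7.26 over the genome. No member exceeded the genome density in either list, whereas 74.1 and 73.3% of protein-coding genes did. ATAC-seq peaks covered 1.27% of the domains in native cells and 1.22% with Satb1, against 5.79 and 9.01% of the genome. Values ran from 1.11 (CDH7) to 3.74 (CDH6) per 100 kb in native cells and from 0.555 (CDH7) to 4.82 (CDH20) with Satb1. Genes of like A/T content were also low, with a median of 2.64 in native cells at 64 to 65% A/T.

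CDH19 and CDH20 held more ATAC-seq peaks in cells with Satb1, 16 against 7 and 30 against 22. In each gene 9 of the peaks in Satb1 cells had no counterpart in native cells. For CDH20, with 9 of 30, this was close to the genome share of 29.8%. In CDH19 all 7 native peaks were found again, and the covered length went from 3593 to 6985 bp. In CDH20 it was 15704 and 15748 bp. CDH7 went the other way, with 6 peaks in native cells and 3 with Satb1, and CDH6 had 20 and 16. Fewer peaks with Satb1 were also held by CDH8 (13 native, 11 with Satb1), CDH9 (12, 11), CDH10 (16, 14), CDH12 (39, 37) and CDH18 (39, 33). CDH11 had 9 and 10, and the whole list was larger with Satb1 (205960 against 175819 peaks). Over all members, 35 of 183 native peaks were absent from the Satb1 list and 32 of 181 Satb1 peaks from the native list, where the genome had 11.2 and 29.8%. With 1 library per state, a difference between libraries and an effect of Satb1 cannot be told apart.

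No FL peak of the family lay in open chromatin. In both ATAC-seq lists 0 of 101 FL peaks overlapped an ATAC-seq peak by at least 1 bp, for which the interval reached 3.59%, against 3.40% (native) and 4.59% (Satb1) of all FL peaks. The native share over the genome was within that interval and the Satb1 share was outside it. Among FL peaks of the genome in surroundings of at least 64% A/T, the shares were 0.881 and 1.03%. In the other ChIP-seq lists the overlaps with native ATAC-seq peaks were 3 of 230 for ∆HD (against 4.59% over the genome), in CDH8 and CDH12, and 1 of 284 for N-C1 (3.72%) and 1 of 186 for ICRF-193 (3.19%), both in CDH12. With CPT it was 0 of 127 (3.15%).

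Starts of the members were mostly closed and free of Satb1. An ATAC-seq peak lay within 1000 bp upstream to 100 bp downstream of a protein-coding transcript start in 4 of 10 members in both cell states, against 77.0 and 80.6% of 19748 protein-coding genes. The 4 genes were CDH10, CDH11, CDH12 and CDH18, the same in both lists. At CDH18 the strongest start peak had a fold enrichment of 10.1 in native cells and 8.79 with Satb1, and at CDH10 it had 2.94 and 2.74. Satb1 was at a start in CDH20 alone, in all 5 ChIP-seq lists, where 0.846% of genes had an FL peak at a start, and 2.0% (∆HD), 2.19% (N-C1), 0.836% (CPT) and 1.24% (ICRF-193) had one in the other lists. That peak (chr18:59157137-59157389, fold enrichment 5.82 with FL Satb1, 3 matches) lay 386 bp upstream of an alternative start, inside intron 1 of the canonical transcript. In CDH18 an FL peak lay 430 bp inside an alternative transcript, outside the start window. The nearest FL peak was 4.52 kb from a start in CDH9, 5.55 kb in CDH12, 8.70 kb in CDH10 and 96.0 kb in CDH8.

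By position, 57 of the 101 FL peaks lay in introns, 42 in the flanks, 1 at the CDH20 start and 1 in an exon. The exonic peak was in exon 12 of CDH6, the last of 12, outside the coding sequence (chr5:31324766-31325086). Its fold enrichment was 3.90 with FL Satb1, 8.96 with ∆HD, 5.87 with N-C1, 3.93 with CPT and 5.97 with ICRF-193, so it was called in every list. With N-C1 alone, 2 peaks overlapped exon 12 of CDH7, also its last exon and outside the coding sequence. CDH12 and CDH18 had most of their FL peaks in the gene body, 20 of 25 and 15 of 22. CDH7 and CDH11 had 6 of 8 each in the flanks. These counts go with body length, which was 1103 of 1503 kb in CDH12 and 1105 of 1505 kb in CDH18. It was 140 of 540 kb in CDH7 and 182 of 582 kb in CDH11. Per 100 kb, CDH12 had more FL peaks in the body than in the flanks (1.81 against 1.25). CDH18 had fewer in the body (1.36 against 1.75), as did CDH7 and CDH11.

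Other genes of cadherin adhesion, among them 3 type II or vascular cadherins outside the 10 members, had lower group medians of Satb1 density and A/T content. The member medians were 1.31 FL peaks per 100 kb and 64.7% A/T. The 5 type I cadherins had a median of 0.407 FL peaks per 100 kb and a median of 53.4% A/T, from 0.236 in CDH15 to 1.09 in CDH2, the N-cadherin of neural and mesenchymal cells. CDH2, at 62.8% A/T, was the single type I gene above the genome density and stood above CDH8, CDH19 and CDH20. CDH5, CDH22 and CDH24 are also classed with the type II or vascular cadherins but are not among the 10 members. They had 0, 0.187 and 0.244 FL peaks per 100 kb in domains of 52.0 to 53.2% A/T, all below the genome. CDH13, which is anchored by lipid and lacks a cytoplasmic tail, had 0.191. Among 7 catenin genes the median was 0.430, from 0 in JUP to 1.38 in CTNNA3, an alpha-catenin of heart and testis in a long gene. At 63.3% A/T, CTNNA3 was denser than 6 of the 10 members. In open chromatin the order of type I cadherins, catenins and members was the opposite. Their medians in native cells were 11.4, 7.29 and 2.23 ATAC-seq peaks per 100 kb. CDH5, CDH22 and CDH24 had a median of 13.9. CDH13 did not follow this order, with 5.85, below the medians of type I cadherins and catenins.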

How the data were processed

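The samples used were 5 ChIP-seq and 2 ATAC-seq peak lists of the human line MCF10A, 1 per condition. The authors trimmed reads with cutadapt, aligned them to hg19 with Bowtie2 and called peaks with MACS2, for ChIP-seq against input DNA and for ATAC-seq as broad peaks. Experiments were done in duplicate. Whether duplicates were pooled for these lists, and tool versions other than that of the trimmer, are not given in the sources used here. The peak threshold is stated in more than one way by the study. The lowest −log10 q-value in the deposited lists was 1.32 to 1.46 for ChIP-seq and 1.18 to 1.22 for ATAC-seq. For each peak the authors deposited a fold enrichment (a ratio over local background), a −log10 p-value, a −log10 q-value and a score derived from the q-value. Peak lists hide signal below their threshold, so absence from a list does not show absence of binding. The mouse lists and the other samples were not used here.

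Domains were gene bodies plus 200 kb from GENCODE v44 lifted to GRCh37, whose sequence is that of hg19. Only peaks on chromosomes 1 to 22 and X were kept. Lists were compared by overlaps of at least 1 bp. Consensus matches were exact and could overlap, counted in 400 bp at the peak midpoint, and A/T content was taken over 200 bp. The background was the same measure over all peaks, the genome or 20090 protein-coding genes. No test was run because each condition had 1 list.

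The members and lists of genes were chosen with earlier results of these data known. All 10 members are named. Named peaks are, for each member, the strongest FL peak and the peak with the most matches in any list, and for each other list the strongest peak absent from FL, with other peaks named by position at starts and exons. Not all peaks that this rule names are described. Related genes are named for the highest or lowest density. Overlaps, motif searches and intervals were tested on simulated data. Alternatives varied the peak threshold, list size, flank, overlap, consensus, window and start definition. Overlaps were checked against bedtools 2.31.1, and the analysis used scipy 1.17.1, pandas 2.3.3 and numpy 2.4.6 under Python 3.11.15, with figures in matplotlib 3.10.9.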

Additional observations from a re-analysis of the deposited data

How the results depend on the processing

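Of 106 recomputed values, 90 stayed inside the interval of the main value or, for counts, within 1.5 times of it. With all ChIP-seq lists reduced to their 22833 strongest peaks, the ratio of ∆HD density to the genome fell to 1.44. Under the same reduction, FL peaks of the family were found in 66.3% (∆HD), 74.3% (N-C1) and 86.1% (ICRF-193) of cases, against 72.5, 77.8 and 80.4% over the genome, and the shares absent from FL were 25.6% (∆HD), 21.3% (N-C1) and 20.9% (ICRF-193), against 28, 22.4 and 20%. This reduction kept the strongest peaks, so list size and peak strength changed together and their parts were not tested. A reciprocal overlap of at least 50% gave 76.2% of FL peaks in the ∆HD list and 90.1% in the ICRF-193 list. With a fold enrichment of at least 5, 59.0% of N-C1 peaks were absent from FL. In gene bodies alone, 20% of CPT peaks were absent from FL, below the genome share of 23.9%, and 100% of 59 FL peaks were found after ICRF-193. The consensus narrowed to CTAATAA or CTAATAG on either strand was in 65.3% of FL peaks of the family, and the full consensus in a 150 bp window in 93.1%. With ATAC-seq peaks of a −log10 q of at least 5, the density ratio in Satb1 cells was 0.418, and 2 members instead of 4 had a start peak in native cells. The ratios of FL density to the genome, the excess of FL peaks retained after CPT and the absence of FL peaks from open chromatin kept their direction under the alternatives run. None of these alternatives matched A/T content, whose part was not tested. After CPT, members and genome had 91.7 and 80.4% at 60 to 62% A/T, 72.7 and 83.3% at 62 to 64%, and 93.6 and 87.9% from 64%. The member interval, 83.8 to 95.8%, included that 87.9%. The ratio of FL peaks per consensus match was 1.13 to 1.41, with an interval above 1 under 3 of 5 alternatives. No paired analysis was possible because there was 1 list per condition. Depth not given per list, a single list per condition and few peaks per gene limit all values.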
